A study of Mus musculus with 16 samples.

Results

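The genes described here are the 10 AP-1 transcription factor genes Jun, Junb, Jund, Fos, Fosb, Fosl1, Fosl2, Batf, Batf2 and Atf3, chosen by symbol from the 55359 genes of the deposited count files. All 10 were among the 17190 genes that passed the filter on low counts and were tested. Poly-A RNA of wild-type MPI-2 cells, mouse macrophages of an alveolar-like kind that grow in the cytokine GM-CSF, had been sequenced in 16 libraries. Cells were left uninfected or had been exposed to Mycobacterium abscessus, which belongs to the nontuberculous mycobacteria and lives inside macrophages, and they were taken at day 1 or day 5, which gives 4 groups of 4 libraries. The replicates are labelled as biological and all come from a single cell line, so p-values measure the spread between these cultures. The title of the series places the experiment in work on cell senescence during chronic intracellular infection.

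AP-1 is a dimer of basic leucine zipper (bZIP) proteins. Jun proteins pair with each other or with Fos proteins, and the Fos proteins need a Jun partner to bind DNA, while the Batf proteins and Atf3 also pair with Jun proteins and often compete with Fos for them. Fos, Fosb, Jun, Junb and Atf3 are immediate-early genes, transcribed within minutes of a stimulus through MAP kinases and factors already present in the cell. In macrophages AP-1 acts beside NF-kappa-B and interferon regulatory factors on cytokine and protease genes.

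RefSeq promoter sequences (GRCm38.p6) matched 8 of the 10 genes, and none was matched for Fosl1 and Batf2. In the 250 bases before the start of transcription, searched on both strands, the TGACG core of the cAMP response element (the site of CREB and ATF proteins) occurred in 5 of the 8 genes, Junb, Fos, Fosb, Batf and Atf3, against 17.8% of 32851 mouse promoter windows of that length. The full element TGACGTCA was found in none of the 8 (1.55% of all windows), and neither was the AP-1 site TGANTCA (6.75%). A TGACNTCA match, a pattern added after these sequences had been read and one that also takes in the full element, was found in Jun (7.49% of windows), as TGACATCA from 45 to 38 bases before the start. A TATAAA box was found in Fos only (12.4% of windows). The 130 bases before the start are shown for 3 genes that were lower in exposed cells, Fos, Fosb and Jun, and 2 that were higher at day 5, Junb and Atf3, with these matches in capitals.
Fos, chr12:85473760-85473889, plus strand: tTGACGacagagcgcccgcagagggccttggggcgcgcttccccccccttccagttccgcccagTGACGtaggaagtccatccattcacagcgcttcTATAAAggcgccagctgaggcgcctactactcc
Fosb, chr7:19310046-19310175, minus strand: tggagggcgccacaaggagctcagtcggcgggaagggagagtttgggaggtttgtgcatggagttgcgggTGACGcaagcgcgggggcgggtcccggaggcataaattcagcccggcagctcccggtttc
Jun, chr4:95052223-95052352, minus strand: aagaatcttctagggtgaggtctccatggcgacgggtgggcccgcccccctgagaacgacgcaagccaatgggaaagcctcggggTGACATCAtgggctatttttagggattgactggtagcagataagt
Junb, chr8:84978749-84978878, minus strand: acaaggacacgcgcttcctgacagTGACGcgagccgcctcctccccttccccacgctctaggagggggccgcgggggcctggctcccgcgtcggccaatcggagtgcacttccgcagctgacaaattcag
Atf3, chr1:191183334-191183463, minus strand: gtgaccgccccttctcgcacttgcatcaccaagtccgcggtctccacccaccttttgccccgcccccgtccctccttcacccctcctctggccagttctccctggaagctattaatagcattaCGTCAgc
Fos carries the TGACG core at 2 places and Fosb, Junb and Atf3 at 1 place each, so the core occurs in genes that fell as well as in genes that rose. Of the other patterns searched in the same 250 bases, a GAS element (TTCNNNGAA, 7.02% of windows), a CArG box (1.47%) and an EGR site (GCGTGGGCG, 0.536%) occurred in none of the 8 genes. Sequence further upstream was not searched, so elements there would be missed. An ISRE core (GAAA, any 2 bases and GAAA again, 2.98% of windows) occurred in Fosl2, and a kappa-B site in Fos, Fosb and Fosl2 (3.9% of windows). Matches are descriptions of the letters and not of binding.

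Totals per library lay between 46154875 and 81995629 counts. Values are CPM, read counts scaled to the normalised library size, and comparisons of level between genes use CPM per kilobase of merged exons. All 8 macrophage and 11 alveolar macrophage marker genes of the lists used passed the filter, and their sums moved with exposure. The macrophage sum was 3406 to 3727 CPM in uninfected and 5416 to 6305 CPM in exposed cells at day 1. At day 5 it was 3626.5 to 4043 and 7225 to 12741 CPM. The alveolar sum was 16165 to 17593 and 12407.5 to 14449 CPM at day 1. At day 5 it was 19598.5 to 26903 and 12110 to 14729 CPM. Among the alveolar genes, Itgax (means 193 and 928 CPM) and Chil3 (16123 and 2990 CPM) went opposite ways at day 5. The summed level of 8 T and NK cell markers was at most 0.563 CPM in any library, with Cd8a, Trbc1 and Trbc2 at 0 counts in all 16, and that of 4 B cell markers at most 0.490 CPM. Mast cell and basophil markers stayed at or below 0.123 CPM. Other marker lists were higher, and each moved with exposure on at least 1 day. Ranges overlapped for the fibroblast markers at day 1 and the neutrophil markers at day 5. The summed level of 7 neutrophil markers, nearly all S100a8, was 300.1 to 391 CPM in uninfected and 762 to 1050 CPM in exposed cells at day 1, and 447 to 614 and 414 to 889 CPM at day 5, with Ly6g at or below 0.485 CPM throughout. That of 6 epithelial markers, nearly all Cdh1, was 62.7 to 67.7 and 34.6 to 42.5 CPM at day 1 and 72.7 to 77.0 and 14.8 to 24.9 CPM at day 5, with Epcam at or below 0.0254 CPM. That of 6 dendritic cell markers, nearly all Clec9a and Zbtb46, was 14.0 to 14.9 and 17.3 to 23.7 CPM at day 1. At day 5 it was 11.9 to 14.1 and 28.6 to 37.3 CPM. That of 6 fibroblast markers was 17.2 to 19.5 and 17.9 to 18.7 CPM at day 1, with Col1a2 at 0 counts in all libraries. At day 5 it was 20.4 to 22.5 and 15.02 to 18.2 CPM, with Pdgfra at means of 20.8 and 11.2 CPM and Pdgfrb at 0.0796 and 4.48 CPM. The mitochondrial share of counts was 1.98% to 2.23% in uninfected and 1.80% to 2.69% in exposed cells at day 1, and 1.58% to 1.84% and 0.780% to 1.24% at day 5. The part of these levels in the AP-1 values was not tested.

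The exposed day 5 libraries varied most, with a median SD over genes of 0.299 on the log2 scale against 0.113 to 0.148 in the other groups. The file names give replicates 2 and 3 of exposed day 5 library codes of another series than the rest.

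Exposure went with a loss of Fos, Fosb and Jun transcripts and a gain of Batf2 and Atf3 transcripts, and the changes of Fos, Fosb, Batf2 and Atf3 were larger at day 5 than at day 1. In such bulk libraries, fewer cells with a transcript and less transcript per cell cannot be told apart. At day 1, 1 of the 10 genes was called higher and 3 lower in exposed cells (edgeR quasi-likelihood test, adjusted p under 0.05), where 23.8% of all tested genes were called, 13.4% higher and 10.5% lower. At day 5, 5 were called higher and 3 lower, against 57% of all tested genes, 28.6% higher and 28.4% lower. The median log2 fold change of the 10 genes was 0.07 at day 1 and 0.52 at day 5, against 0.03 and 0.02 over all tested genes, so that at day 1 the genes moved in both directions around the general median. Their median size regardless of sign was 0.49 at day 1 and 1.32 at day 5, against 0.25 and 0.49 over all tested genes.

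**Figure D1:**
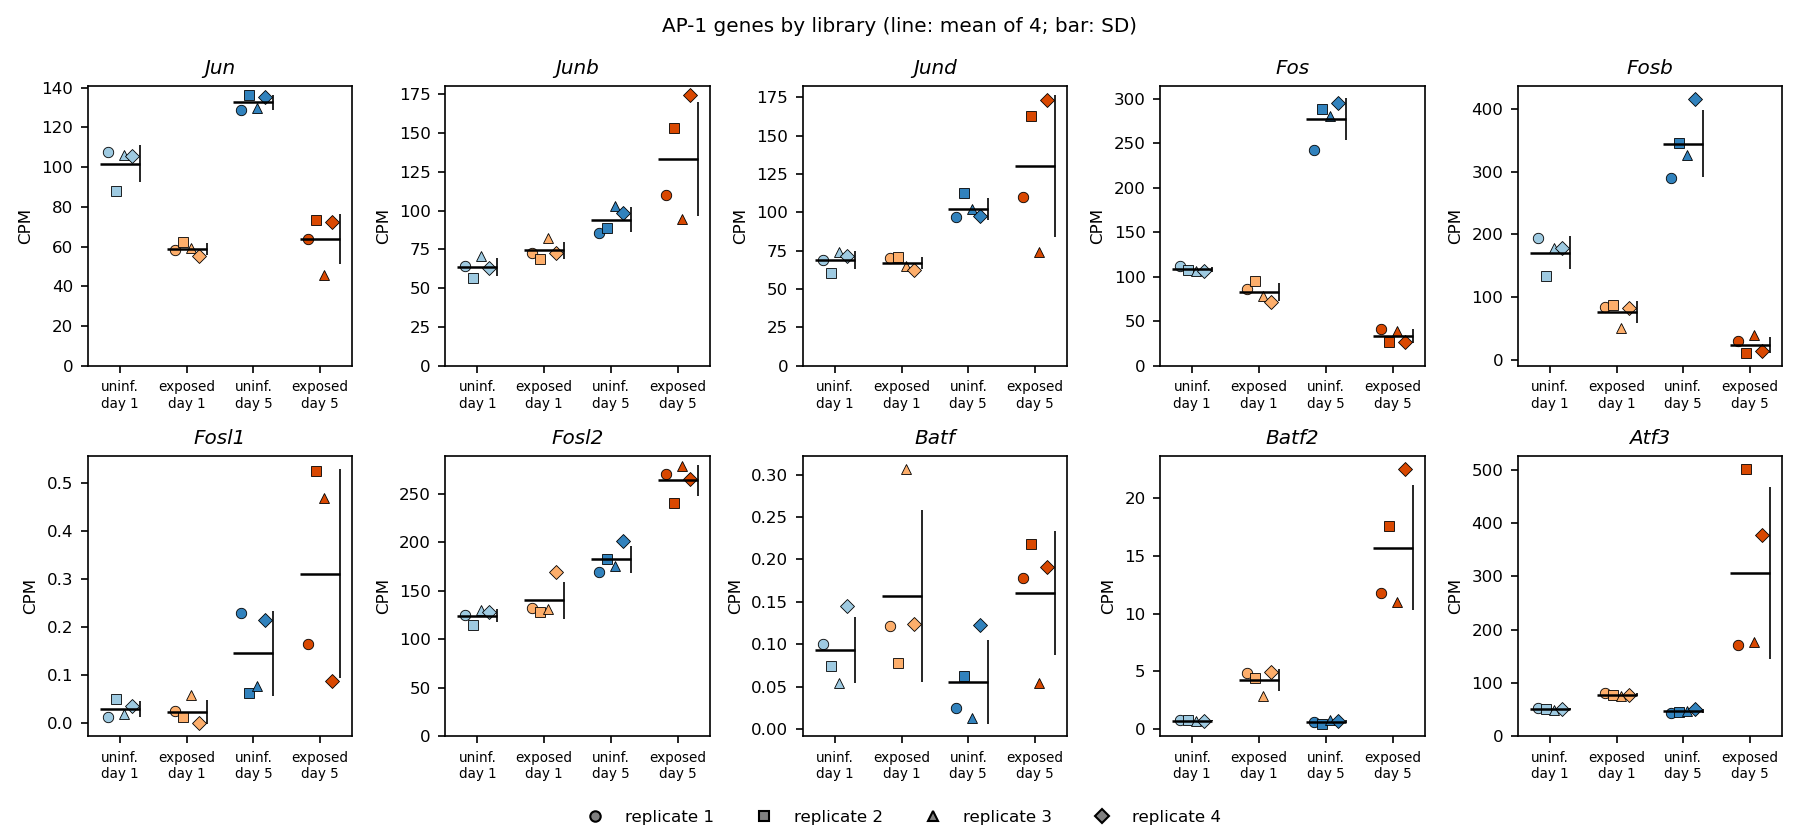
Normalised level (CPM, vertical axis from 0 or just below it, a separate linear scale per gene) of the 10 AP-1 genes in each of the 16 libraries, by group on the horizontal axis. Symbols stand for replicates, horizontal lines for means and vertical lines for SD (n = 4). Fos in exposed day 5 libraries lies between 27.0 and 40.8 CPM, below every other library, and Batf2 there lies between 11.0 and 22.5 CPM, above every other library.

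Fos encodes c-Fos, the protein after which the family is named. In uninfected cells it stood at 112, 107, 107 and 106 CPM at day 1 (replicates 1 to 4) and at 243, 289, 281 and 295 CPM at day 5. In exposed cells it stood at 86.2, 95.1, 78.4 and 72.0 CPM at day 1 and at 40.8, 27.0, 39.6 and 27.2 CPM at day 5. Exposed and uninfected libraries did not overlap on either day. At day 1 Fos fell by 0.38 ± 0.12 (SE) on the log2 scale, a fold of 1.30 (adjusted p = 0.0305, edgeR). This small decrease lost its call without replicate 3 or 4 of the exposed or any 1 of the 4 uninfected day 1 libraries, with log2 changes of -0.39 to -0.32 and adjusted p of 0.0566 to 0.104. It was called under 8 of the 14 alternatives run, with a lowest adjusted p of 0.000311 (edgeR or DESeq2). At day 5 Fos fell by 3.04 ± 0.13, an 8.23-fold lower level (adjusted p = 1.16e-12). The change between the days in the effect of exposure was -2.66 ± 0.18 (adjusted p = 5.96e-09). Fos thus had its highest levels in uninfected cells at day 5 and its lowest in exposed cells on the same day.

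Fosb, whose product FosB is the nearest relative of c-Fos, showed the same order of groups. Its levels were 194, 133, 179 and 178 CPM in uninfected and 84.2, 87.3, 50.1 and 82.5 CPM in exposed cells at day 1. At day 5 they were 290, 346, 326 and 417 CPM in uninfected and 29.3, 11.3, 38.7 and 14.2 CPM in exposed cells. Groups did not overlap on either day, and exposed day 5 libraries differed among themselves by more than 3-fold from lowest to highest. Fosb fell by 1.17 ± 0.30 on the log2 scale at day 1 (2.25-fold, adjusted p = 0.00921) and fell by 3.88 ± 0.33 at day 5 (14.8-fold, adjusted p = 3.37e-08, edgeR). The effect differed between days by -2.72 ± 0.42 (adjusted p = 0.000123).

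Fosl2 encodes Fra-2, a Fos protein without the transactivation domain of c-Fos. It did not fall with Fos and Fosb. It stood at 125, 115, 130 and 129 CPM in uninfected and 132, 128, 132 and 169 CPM in exposed cells at day 1, which overlap (log2 difference 0.17, adjusted p = 0.187, 95% interval -0.02 to 0.36). At day 5 it stood at 170, 183, 175 and 201 CPM in uninfected and 270, 241, 279 and 266 CPM in exposed cells, without overlap, and rose by 0.53 ± 0.09 (1.45-fold, adjusted p = 5.99e-05). The change in the effect between days, 0.36 ± 0.13 (adjusted p = 0.0360), was not called with 1 library left out in 11 of 16 cases, namely replicates 1, 2 or 3 of exposed day 1, 1 or 4 of exposed day 5, 1, 3 or 4 of uninfected day 1 and 1, 2 or 3 of uninfected day 5 (log2 0.32 to 0.36, adjusted p 0.0528 to 0.0852). Fosl1, which encodes Fra-1, was close to undetected, with 8 and 7 counts in all over the uninfected and exposed day 1 libraries and 42 and 79 at day 5. Its exposure effects were not called (day 1 log2 -0.21, 95% interval -2.24 to 1.81; day 5 1.08, -0.13 to 2.29), and at this depth changes inside those intervals were not detectable. Without replicate 4 of exposed day 5 the day 5 effect of Fosl1 was called (1.38, adjusted p = 0.0456), and without replicates 2 and 3 it was -0.19 (adjusted p = 0.841).

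Of the Jun genes, Jun fell, Junb rose at day 5 and Jund was not called. Jun encodes c-Jun, the main dimer partner of c-Fos. It stood at 108, 88.0, 106 and 106 CPM in uninfected and 58.3, 62.5, 59.4 and 55.3 CPM in exposed cells at day 1. At day 5 it stood at 129, 136, 130 and 135 CPM in uninfected and 63.8, 73.4, 45.8 and 72.5 CPM in exposed cells. Exposed libraries were below uninfected ones on both days without overlap. The decreases were 0.79 ± 0.11 at day 1 (1.73-fold, adjusted p = 4.94e-05) and 1.05 ± 0.11 at day 5 (2.08-fold, adjusted p = 1.82e-07, edgeR). They were not shown to differ between days (difference -0.26, 95% interval -0.59 to 0.07, adjusted p = 0.206).

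Junb encodes JunB, a weaker activator than c-Jun that can oppose it. Its levels at day 1 were 64.1, 56.4, 70.7 and 63.2 CPM in uninfected and 72.8, 69.1, 82.5 and 73.0 CPM in exposed cells, and the log2 difference of 0.22 was not called (adjusted p = 0.267, 95% interval -0.07 to 0.52). At day 5 they were 85.8, 88.9, 103 and 98.7 CPM in uninfected and 110, 153, 94.9 and 174 CPM in exposed cells. Junb rose at day 5 by 0.50 ± 0.14 (1.42-fold, adjusted p = 0.00533), although replicate 3 of the exposed cells lay within the uninfected range. In a fit to the day 1 libraries alone the day 1 difference was called as well (0.23, adjusted p = 0.0109).

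Jund encodes JunD, the Jun protein held at steady levels in most resting cells. It stood at 69.0, 60.4, 74.4 and 71.5 CPM in uninfected and 70.2, 70.7, 64.8 and 62.2 CPM in exposed cells at day 1, with a log2 difference of -0.04 (95% interval -0.42 to 0.34, adjusted p = 0.905). At day 5 the values were 97.2, 113, 102 and 97.8 CPM in uninfected and 110, 163, 74.3 and 173 CPM in exposed cells, so that 1 exposed library lay below and 2 lay far above all uninfected ones. The day 5 difference of 0.35 ± 0.18 was not called (adjusted p = 0.114, 95% interval -0.04 to 0.73). Without replicate 3 of the exposed cells it was 0.54 and was called (adjusted p = 0.000622), and without replicates 2 and 3 it was 0.47 (adjusted p = 0.00542). The change of the effect between days was likewise called only there (0.58, adjusted p = 0.00716, and 0.51, adjusted p = 0.0242).

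Batf2 encodes a short bZIP protein known as an interferon-induced partner of Jun proteins in macrophages, and it had the largest rise of the 10 genes on both days. It stood at 0.753, 0.783, 0.651 and 0.669 CPM in uninfected and 4.83, 4.40, 2.84 and 4.98 CPM in exposed cells at day 1. At day 5 it stood at 0.648, 0.466, 0.762 and 0.659 CPM in uninfected and 11.8, 17.6, 11.0 and 22.5 CPM in exposed cells. Every exposed library was above every uninfected one. Batf2 rose by 2.56 ± 0.24 at day 1 (5.91-fold, adjusted p = 2.65e-07) and by 4.62 ± 0.25 at day 5 (24.6-fold, adjusted p = 1.59e-11, edgeR). The effect was larger at day 5 by 2.06 ± 0.33 (adjusted p = 0.000114). Batf, its relative best known from T cells, had from 1 to 21 counts in a library and group totals of 25 and 43 counts at day 1 and 15 and 42 at day 5 (uninfected, then exposed). Its day 5 difference of 1.57 ± 0.63 was called (adjusted p = 0.0394) with overlapping libraries, and the call was lost without replicates 1, 2 or 4 of exposed or 1, 2 or 3 of uninfected day 5 (log2 1.22 to 1.63, adjusted p 0.0636 to 0.121) and when every gene with at least 1 count was kept (adjusted p = 0.0586). The day 1 difference of 0.74 was not called (adjusted p = 0.384, 95% interval -0.48 to 1.97).

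Atf3 encodes a stress-induced bZIP protein that represses many inflammatory genes. It stood at 53.7, 50.8, 48.6 and 51.0 CPM in uninfected and 81.2, 76.5, 74.9 and 77.7 CPM in exposed cells at day 1. The libraries did not overlap, but the log2 difference of 0.60 ± 0.25 was not called in the fit to all 16 libraries (adjusted p = 0.0863, 95% interval 0.08 to 1.13). That fit takes 1 spread for all groups, and Atf3 varied far more in exposed day 5 cells (SD 0.78 on the log2 scale) than in either day 1 group (0.06 and 0.05). In a fit to the day 1 libraries alone the difference was 0.61 (adjusted p = 6.35e-08). At day 5 Atf3 stood at 44.5, 45.5, 48.3 and 51.6 CPM in uninfected and 172, 502, 177 and 377 CPM in exposed cells, and it rose by 2.69 ± 0.26 (6.46-fold, adjusted p = 1.73e-07, edgeR). The effect was larger at day 5 by 2.09 ± 0.35 (adjusted p = 0.000245).

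**Figure D2:**
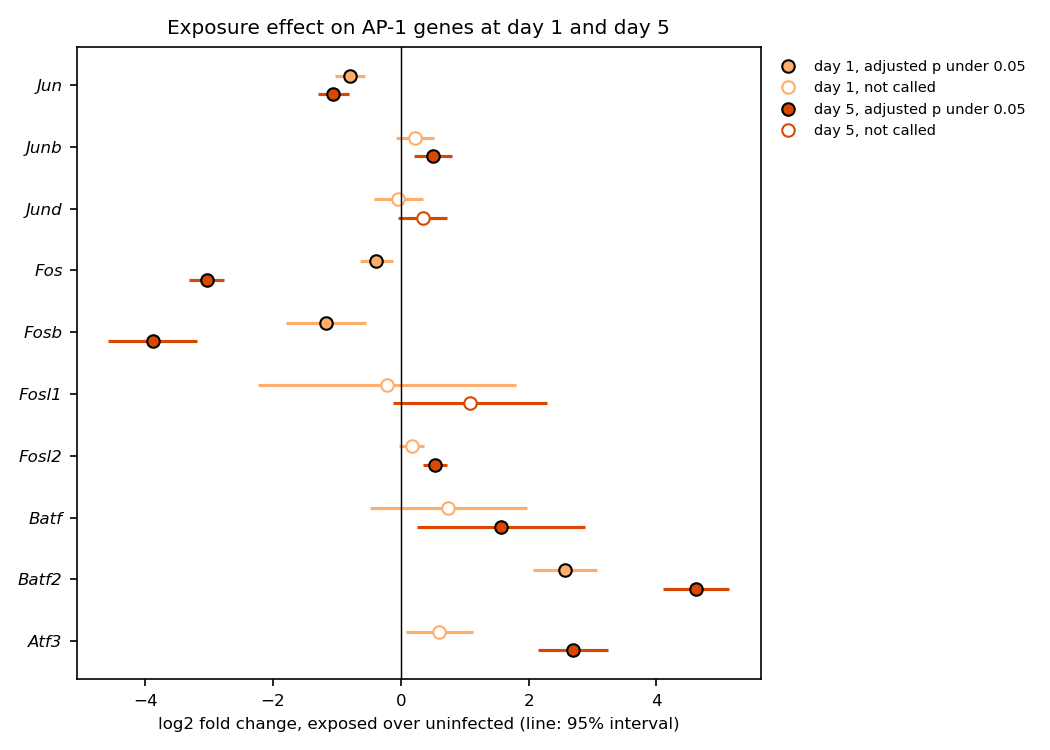
Log2 fold change of exposed over uninfected cells (horizontal axis) for the 10 AP-1 genes (vertical axis) at day 1 and day 5, with 95% intervals. Filled points passed the test, and Fos and Fosb lie at -3.04 and -3.88 and Batf2 and Atf3 at 4.62 and 2.69 at day 5.

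Over all 10 genes, the change of the exposure effect between days was called in 5, with Fosl2, Batf2 and Atf3 moving up and Fos and Fosb down, where 35.9% of all tested genes were called (16.4% up and 19.5% down). Libraries of exposed and uninfected cells did not overlap for 5 genes at day 1, 2 higher and 3 lower (39.3% of all tested genes, 19.6% higher and 19.7% lower). At day 5 they did not overlap for 6 genes, 3 higher and 3 lower (46.6% of all tested genes, 22.3% higher and 24.2% lower). In the counts over all tested genes, the fit to the day 1 libraries alone raised the number called higher from 2297 to 3650 and the number called lower from 1800 to 3371, and among the AP-1 genes it added Junb and Atf3 to those called higher.

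The make-up of AP-1 transcripts changed with these differences. Exon lengths came from GENCODE M21 on GRCm38, while the counts were made on GRCm39 with an annotation that is not given. Levels per kilobase, and the ranks and shares of genes made from them, are therefore approximate. Per kilobase of exon, Fos led in uninfected cells at day 1 with 46.0 ± 1.1 CPM per kilobase (SD, n = 4), followed by Jund at 41.3 ± 3.6, Jun at 31.9 ± 2.9, Junb at 27.7 ± 2.5, Fosb at 27.4 ± 4.2, Atf3 at 23.7 ± 1.0 and Fosl2 at 12.9 ± 0.7. Ranges over libraries overlapped among Jun, Junb and Fosb, and those of Atf3 with Junb and Fosb, but not between Fos and Jund. Within each library, Jun was above Junb and Fosb, and Junb was above Atf3. In exposed cells at day 1, Jund (40.2 ± 2.5), Atf3 (36.0 ± 1.2), Fos (35.2 ± 4.2) and Junb (32.3 ± 2.5) led, and each neighbour in that order overlapped with the next. Within each library Jund was above Atf3, while the order of Atf3 and Fos and that of Fos and Junb varied.

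In uninfected cells at day 5 Fos stood at 118 ± 10.0 CPM per kilobase, above Jund at 61.4 ± 4.3 and Fosb at 55.2 ± 8.5, without overlap between Fos and the other two. Jun (41.6 ± 1.2) and Junb (40.9 ± 3.5) overlapped with each other, and so did Atf3 (22.0 ± 1.5) and Fosl2 (18.8 ± 1.4) below them. Within each library Atf3 was above Fosl2, while the order of Jun and Junb varied. In exposed cells at day 5 Atf3 led with 142 ± 74.8, followed by Jund at 78.0 ± 27.9 and Junb at 57.9 ± 16.1. The range of Jund over libraries overlapped with both, while those of Atf3 and Junb did not overlap. Within each library the order was Atf3, Jund and Junb. Fosl2 (27.3 ± 1.7) came next, above the range of Jun (20.0 ± 4.0), Fos (14.3 ± 3.2), Batf2 (6.24 ± 2.14) and Fosb (3.74 ± 2.07). Batf and Fosl1 stayed below 0.26 CPM per kilobase in every library.

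As a share of the summed CPM per kilobase of all 10 genes, Fos and Fosb made up 34.7% ± 0.9 (SD, n = 4) in uninfected and 24.8% ± 2.3 in exposed cells at day 1. At day 5 they made up 48.2% ± 1.7 in uninfected and 5.99% ± 3.45 in exposed cells, with 8.21%, 2.85%, 9.65% and 3.23% in the 4 exposed libraries. Atf3 went the other way, with 11.3% ± 0.8 and 18.9% ± 0.6 at day 1 and 6.16% ± 0.28 and 38.8% ± 8.8 at day 5. The 3 Jun genes together held 47.7% ± 1.5 and 47.7% ± 1.9 at day 1 and 40.3% ± 1.8 and 44.8% ± 4.5 at day 5, while Jun alone went from 15.1% to 9.68% at day 1 and from 11.6% to 5.93% at day 5. The summed level itself was 211 ± 13.5 and 191 ± 6.5 CPM per kilobase at day 1 and 358 ± 24.3 and 350 ± 113 at day 5. Summed AP-1 transcripts at day 5 were thus at a similar mean with and without exposure, with the exposed libraries spread from 239 to 466. Shares of transcripts do not give shares of protein.

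**Figure D3:**
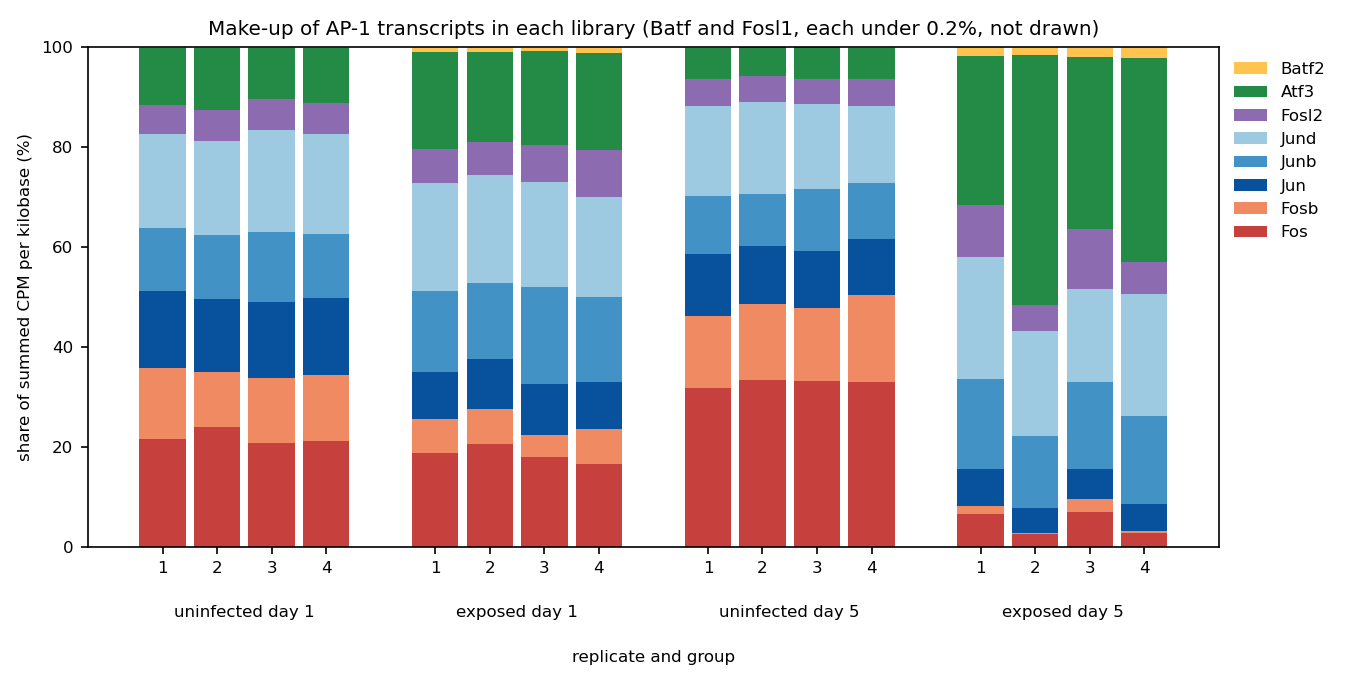
Share of the summed CPM per kilobase of the AP-1 genes (vertical axis, percent) held by each gene in each library, stacked, by replicate and group on the horizontal axis. Fos and Fosb hold 46.2% to 50.4% in uninfected day 5 libraries and 2.85% to 9.65% in exposed ones, where Atf3 holds 29.7% to 50.0%.

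AP-1 genes also rose with time in culture in uninfected cells. Between day 1 and day 5, 7 of the 10 genes were called higher in uninfected cells and none lower, against 19.7% of all tested genes called, 10.8% higher and 8.91% lower, and the 3 genes without a call had unadjusted p of 0.256 to 0.677. The median log2 change of the 10 genes was 0.56, against 0.02 over all tested genes. Fos rose most among the abundant genes, by 1.36 ± 0.13 (2.56-fold, adjusted p = 6.65e-07), followed by Fosb at 1.01 ± 0.29 (adjusted p = 0.0232), Jund at 0.57 ± 0.18 (adjusted p = 0.0356), Junb at 0.56 ± 0.14 (adjusted p = 0.00909), Fosl2 at 0.55 ± 0.09 (adjusted p = 0.000368) and Jun at 0.38 ± 0.11 (adjusted p = 0.0215). Fosl1 was called at a few counts per library (2.24 ± 0.76, adjusted p = 0.0443). Atf3 (-0.10, 95% interval -0.63 to 0.42), Batf2 (-0.17, -0.72 to 0.37) and Batf (-0.78, -2.16 to 0.61) were not called, here or in any of the alternatives run, DESeq2 among them.

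Several of these calls were near the threshold in the fit to all 16 libraries. Those of Fos, Fosl2 and Junb held with each library left out, while Jund lost its call without any 1 of the 8 uninfected libraries (log2 0.51 to 0.61, adjusted p 0.0534 to 0.0972) and when every gene with at least 1 count was kept (adjusted p = 0.143). Fosb lost its call without uninfected day 1 replicate 2, 3 or 4 or day 5 replicate 4 (log2 0.91 to 1.03, adjusted p 0.0537 to 0.0878) and with every gene of at least 1 count kept (adjusted p = 0.0926). Jun lost its call without day 1 replicate 2 (0.32, adjusted p = 0.0795) or day 5 replicate 4 (0.37, adjusted p = 0.0585). Fosl1 lost its call without any 1 of the 4 day 1 libraries or day 5 replicate 1 or 4 (log2 1.92 to 2.67, adjusted p 0.0558 to 0.127). Over all 14 alternatives run, Jund was called in 5, Fosb in 9 and Jun in 12, and Fosl1 in 5 of 12. The lowest adjusted p among them (edgeR or DESeq2) was 4.39e-06 for Jund, 0.000301 for Fosb, 0.000140 for Jun and 0.0307 for Fosl1. The uninfected libraries of the days did not overlap for all 7 genes, each higher at day 5, against 35.5% of all tested genes, 17.6% higher and 17.9% lower. For Fosl1 this rests on few counts, since the nearest libraries, replicate 2 of each day, both had 4 counts (0.0497 and 0.0621 CPM).

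In exposed cells, 6 of the 10 genes were called higher and 2 lower at day 5 than at day 1, against 50.8% of all tested genes, 25.6% higher and 25.2% lower. Libraries of the exposed days did not overlap for these 8 genes, against 41% of all tested genes, 19.5% higher and 21.5% lower. Fos fell by 1.30 ± 0.13 (adjusted p = 1.03e-07) and Fosb by 1.70 ± 0.30 (adjusted p = 0.000175), the reverse of their course in uninfected cells. Atf3 rose by 1.98 ± 0.25 (adjusted p = 6.11e-06), Batf2 by 1.88 ± 0.21 (adjusted p = 5.93e-07), Jund by 0.96 ± 0.18 (adjusted p = 0.000320), Fosl2 by 0.91 ± 0.09 (adjusted p = 1.71e-07) and Junb by 0.84 ± 0.14 (adjusted p = 7.17e-05). Fosl1 rose by 3.53 ± 0.73 (adjusted p = 0.000509), from 7 to 79 counts in all, and its nearest libraries had 4 counts at day 1 and 5 at day 5. Jun, at 0.12 (adjusted p = 0.403, 95% interval -0.12 to 0.35), was not called, except without exposed day 5 replicate 3 (0.25, adjusted p = 0.0108) or without replicates 2 and 3 (0.21, adjusted p = 0.0458). The comparisons of days share libraries with the comparisons of exposure, so their values are not independent of each other.

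The 4 exposed day 5 libraries fell into pairs for most AP-1 genes. Replicates 2 and 4 had the higher and replicates 1 and 3 the lower levels of Jun, Junb, Jund, Batf2 and Atf3, and the reverse held for Fos and Fosb. For Jun the pairs were less clear, with log2 deviations from the mean of 0.02, 0.22, -0.45 and 0.21 in replicates 1 to 4. Relative to the mean of the 4 libraries on the log2 scale, Atf3 stood at -0.68, 0.86, -0.64 and 0.45 and Fosb at 0.50, -0.87, 0.91 and -0.54 in replicates 1 to 4. Jund stood at -0.17, 0.40, -0.73 and 0.49, while Fosl2 stayed within -0.13 and 0.08. The pairs do not follow the library codes, which set replicates 2 and 3 apart. They are not particular to AP-1 genes. Over the counts of all genes, replicates 2 and 4 (chi-squared per degree of freedom 68.1) and 1 and 3 (101) differed least, against 126 to 250 for other pairs. Other measures moved with the same pairs. The summed level of 8 heat shock genes, mostly Hspa8 (mean 2208 CPM), was 2768, 4030, 2612 and 3506 CPM in replicates 1 to 4. Of single heat shock genes, Hsph1 (59.6, 74.8, 44.4 and 82.3 CPM) and Dnajb1 (29.9, 46.7, 28.1 and 37.5 CPM) followed the pairs. Hspe1 (171, 131, 215 and 148 CPM) went the other way, and Hspd1 (243, 227, 153 and 247 CPM) did not follow them. Ddit3, a stress-induced bZIP factor, stood at 43.7, 76.3, 36.6 and 77.4 CPM. The summed level of 7 neutrophil markers, nearly all S100a8, was 723, 414, 889 and 491 CPM. The part of these in the AP-1 values was not tested.

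**Figure D4:**
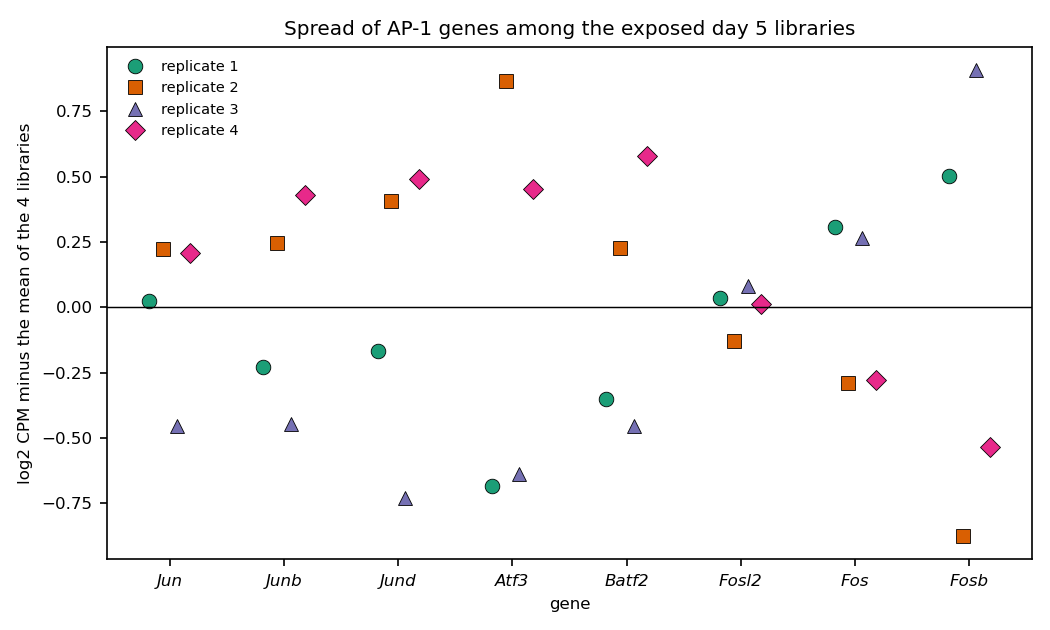
Log2 CPM of 8 AP-1 genes (horizontal axis) in each exposed day 5 library minus the mean of the 4 libraries (vertical axis). Replicates 2 and 4 lie above the mean for Jun, Junb, Jund, Atf3 and Batf2 and below it for Fos and Fosb, and Fosl2 stays within -0.13 and 0.08.

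Among 24 other bZIP genes, 6 were called higher and 1, Nfil3, lower in exposed cells at day 1, and 12 higher and 7 lower at day 5, against 13.4% of all tested genes higher and 10.5% lower at day 1 and 28.6% and 28.4% at day 5. Their medians were 0.12 and 0.24 on the log2 scale, against 0.03 and 0.02 over all tested genes. Creb5, a CREB family factor that pairs with Jun, rose from 17.9 ± 0.4 to 33.4 ± 3.5 CPM at day 1 (SD, n = 4; log2 0.90, adjusted p = 5.44e-06) and by 2.22 at day 5 (adjusted p = 4.36e-12). Ddit3, which encodes the stress factor CHOP, rose by 2.01 at day 5 (adjusted p = 6.73e-08), and at day 1 its difference of 0.36 was not called (adjusted p = 0.160). Maff, a small Maf protein, rose by 0.41 (adjusted p = 0.00308) and 0.70 (adjusted p = 2.02e-06), and Cebpg, a C/EBP protein without an activation domain, by 0.33 (adjusted p = 0.00806) and 0.82 (adjusted p = 1.17e-07). Batf3, the third BATF gene, rose at day 1 by 0.91 (adjusted p = 0.000271).

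Most other immediate-early genes were lower in exposed cells at day 5, as Fos was. Of 20, 7 were called lower and 3 higher at day 1, and 13 lower and 5 higher at day 5. Of all tested genes, 10.5% were called lower and 13.4% higher at day 1, and 28.4% and 28.6% at day 5. The medians of the 20 genes were -0.24 and -0.53, against 0.03 and 0.02 over all tested genes. Egr1, which encodes a zinc finger factor of the same early response, fell by 0.45 at day 1 (adjusted p = 0.0129) and by 1.93 at day 5 (adjusted p = 3.04e-10), from 485 ± 24.1 to 127 ± 24.1 CPM. Klf4 fell by 0.58 (adjusted p = 4.01e-05) at day 1 and fell by 1.62 (adjusted p = 6.91e-12) at day 5, and Myc fell by 0.34 (adjusted p = 0.00813) at day 1 and fell by 1.54 (adjusted p = 4.46e-11) at day 5. Dusp1, a phosphatase that switches off MAP kinases, fell at day 1 by 1.40 (adjusted p = 2.51e-05). Btg2, an antiproliferative gene, rose at day 1 by 0.67 (adjusted p = 2.42e-05) and fell at day 5 by 1.10 (adjusted p = 5.26e-09). The 5 that rose at day 5 were Nr4a2, Gadd45b, Ier3, Nr4a3 and Csrnp1, named after their values were seen. Between days in uninfected cells, 10 of the 20 were called higher and 1, Nr4a2, lower, against 10.8% and 8.91% of all tested genes, with a median of 0.58 against 0.02.

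Upstream of AP-1, 2 of 26 tested genes of the MAP kinase cascade were called higher and 3 lower at day 1, and 8 higher and 9 lower at day 5 (medians -0.07 and -0.02). These counts lie near the shares of all tested genes called, 23.8% at day 1 and 57% at day 5. The 2 higher at day 1 were Map3k8 and Mapkapk2 (0.42, adjusted p = 0.0303), and Mapkapk2 lost its call without any 1 of the 8 day 1 libraries other than replicate 2 of the exposed cells (log2 0.38 to 0.44, adjusted p 0.0600 to 0.0851), which left 1. Mapkapk2, the kinase below p38 that stabilises cytokine mRNAs, rose by 1.67 at day 5 (adjusted p = 6.50e-09), from 177 to 562 CPM. Rps6ka1 and Rps6ka5, kinases below ERK and p38, fell by 1.36 (adjusted p = 1.68e-09) and 1.30 (adjusted p = 4.81e-07) at day 5. Map3k8, which encodes the ERK pathway kinase TPL2, rose at day 1 by 0.65 (adjusted p = 0.00123) and was at 0.04 at day 5 (adjusted p = 0.827). Of 15 upstream transcription factors, 2 were called higher and 3 lower at day 1 and 9 higher and 2 lower at day 5 (medians 0.00 and 0.33), against 13.4% and 10.5% of all tested genes at day 1 and 28.6% and 28.4% at day 5. Nfkb1 rose by 2.19 at day 5 (adjusted p = 4.10e-09), and Ets2 rose by 0.77 at day 1 (adjusted p = 0.00130) and by 1.58 at day 5 (adjusted p = 8.02e-08). These are transcript levels, and kinase activity was not measured.

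The 3 interferon regulatory factors that bind DNA with BATF proteins were all called on both days. Irf4 rose by 0.74 (adjusted p = 0.00812) and 3.64 (adjusted p = 9.39e-12), reaching 32.6 CPM from 2.62 at day 5, and Irf1 rose by 1.07 (adjusted p = 2.80e-06) and 1.70 (adjusted p = 6.72e-10). Irf8 fell by 0.74 (adjusted p = 0.00120) and 1.76 (adjusted p = 1.02e-08). Of 8 genes for AP-1 turnover, 1 was called lower at day 1, and 1 was called higher and 2 lower at day 5, a smaller share on both days than the 23.8% and 57% of all tested genes called. Trib1, an adaptor of the ubiquitin ligase COP1, fell by 1.07 (adjusted p = 1.94e-08) and 0.83 (adjusted p = 6.80e-08), and Fbxw7, a ligase subunit that takes up c-Jun, rose by 0.45 at day 5 (adjusted p = 0.000195). Usp28 fell by 0.28 at day 5 (adjusted p = 0.00335).

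Of 24 tested genes known from textbooks as AP-1 targets, 7 were called higher and 1 lower at day 1, and 21 higher and 1 lower at day 5. Like the other lists, this one was chosen with earlier results of these data known, so its counts are a description and not independent evidence. Of all tested genes, 13.4% were called higher and 10.5% lower at day 1, and 28.6% and 28.4% at day 5. The targets had medians of 0.17 and 2.97 against 0.03 and 0.02 over all tested genes. The medians were the same with 1 gene that had 0 counts in a group set to its bound. Il1b, an inflammatory cytokine, rose by 2.61 at day 1 (adjusted p = 3.29e-06) and by 7.58 at day 5 (adjusted p = 1.01e-11), from 8.85 to 1696 CPM. Mmp2, a matrix protease, rose by 2.54 (adjusted p = 1.07e-08) and 5.04 (adjusted p = 4.00e-13), and Itgax, which encodes CD11c, rose by 2.27 at day 5 (adjusted p = 3.78e-12) and was at 0.07 at day 1 (adjusted p = 0.664). Lif rose by 0.69 at day 1 (adjusted p = 8.24e-06), was at 0.20 at day 5 without a call (adjusted p = 0.0543), and its effect was smaller at day 5 (change -0.50, adjusted p = 0.00309). The gene that fell on both days, named after its values were seen, was Ccnd1, which encodes cyclin D1 (-0.66, adjusted p = 0.00325, and -2.55, adjusted p = 9.23e-11). Many of these genes are also known as targets of NF-kappa-B or interferon pathways, so their counts are not a readout of AP-1 alone.

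**Figure D5:**
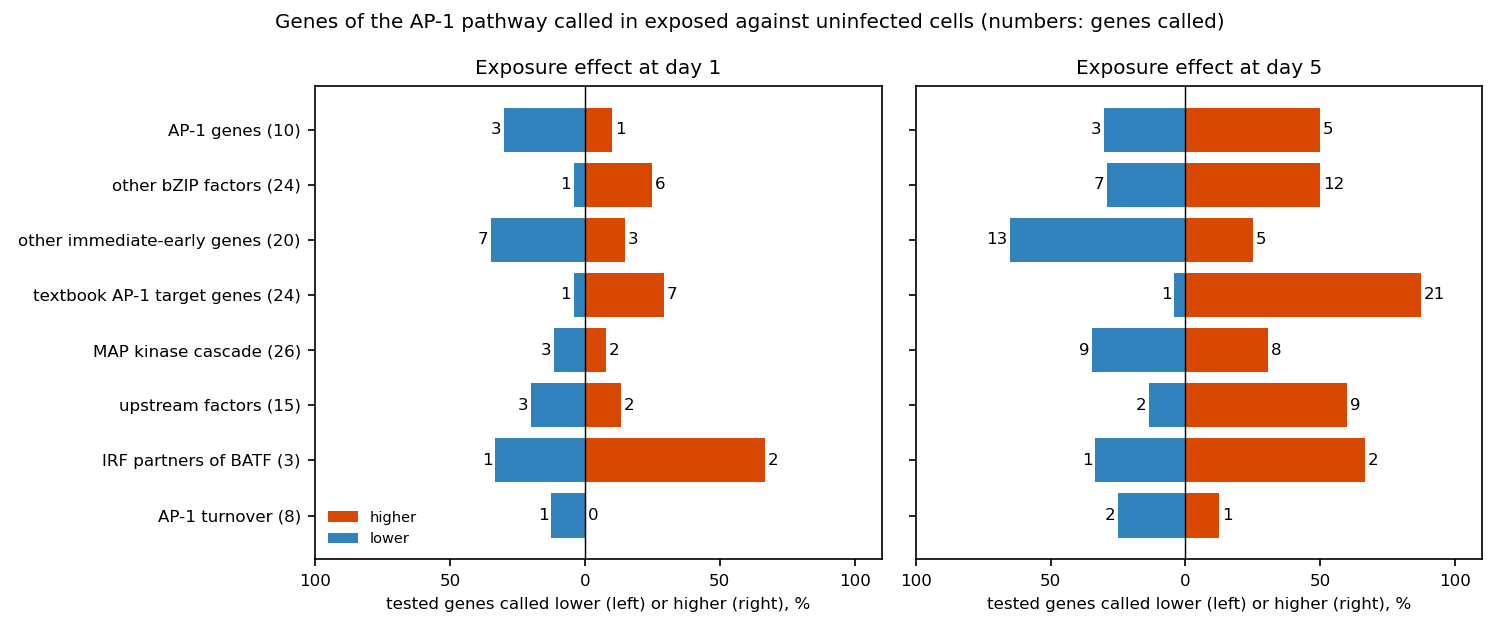
Share of the tested genes of each list (percent, horizontal axis) called higher (right) or lower (left) in exposed cells at day 1 and day 5, with the number called beside each bar and the number tested in brackets. At day 5, 21 of 24 textbook AP-1 target genes were called higher and 13 of 20 other immediate-early genes lower. The lists were chosen with earlier results of these data known.

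By the correlation of log2 CPM over the 16 libraries, the tested genes most like Fos were Tob1 (Pearson r = 0.988), Eef2k (0.988) and Echdc1 (0.988), and those most like Fosb were Utp14b (0.985), Abcg1 (0.981) and Capn1 (0.979). Batf2 was most like Gbp2 (0.994), Herc6 (0.993) and Parp14 (0.993), of which the first is a guanylate binding protein gene induced by interferon. Atf3 was most like Fndc3a (0.990), Ldlrad4 (0.990) and Tmem140 (0.990). Jun was most like Ece1 (0.974), Junb like Map2k1 (0.953), Jund like Spop (0.970) and Fosl2 like Gpr137 (0.978). These are descriptions over 16 libraries that share 4 groups. After subtraction of the group means, r was 0.62 for Fos and Tob1, 0.79 for Batf2 and Gbp2, 0.90 for Atf3 and Fndc3a and 0.93 for Jund and Spop.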

How the data were processed

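RNA of 16 MPI-2 libraries was sequenced after poly-A selection, per the labels. The authors deposited raw counts per gene, made with STAR on GRCm39 per the submitters' processing notes and, going by the file names, for the reverse strand. The version and annotation are not given in the sources used here. Symbols came from GENCODE M21 for 52083 of 55359 genes, and the others held 0.449% of counts. Ddit3 was held by 2 identifiers, and the one with more counts was used. Exon lengths came from the same release on GRCm38, the promoters from RefSeq.

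Genes passing edgeR's filterByExpr (17190) were scaled by TMM and fitted in 1 robust quasi-likelihood model with a mean per group (edgeR 4.0.16, limma 3.58.1, R 4.3.3). Exposed and uninfected cells were compared on each day, with the interaction, and the days within each condition. Two-sided p-values were adjusted by Benjamini-Hochberg over all genes tested and called under 0.05. Log2 CPM used a prior count of 2. The model's common biological coefficient of variation was 0.149. The fits were tested on simulated data. Plots were made in matplotlib 3.10.9.

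The members and lists were chosen with earlier results of these data known. Named genes are all members, from each of 8 related lists the 3 with the smallest p for either exposure effect, and the 3 most correlated genes of members above 1 CPM. The lists cover other bZIP factors, immediate-early genes, MAP kinases, upstream factors, IRF partners, turnover, targets and heat shock genes. Of 28 MAP kinase genes 26 and of 26 targets 24 were tested, and Rps6ka4 was not matched to a symbol. One gene that the rule takes is not reported here. Alternatives were DESeq2 1.42.0, RLE size factors, filters of 1 count or of 1 CPM in 4 libraries, fits to only the 8 libraries compared, a block for the replicate number, leaving out single libraries, leaving out exposed day 5 replicates 2 and 3 together, and a prior count of 0.5.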

Additional observations from a re-analysis of the deposited data

Results flagged for a closer look

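In 4 of 40 sets of 4 libraries, 1 library stood apart from the other three by Dixon's test at the 95% level, where chance gives about 1 in 20. These were Jun in uninfected day 1 replicate 2 (88.0 CPM, the lowest), Fos in uninfected day 1 replicate 1 (112 CPM, the highest), Fosb in exposed day 1 replicate 3 (50.1 CPM, the lowest) and Fosl2 in exposed day 1 replicate 4 (169 CPM, the highest).

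The effect of exposure differed between day 5 and day 1 by the interaction test for 5 genes, with log2 differences of -2.66 for Fos, -2.72 for Fosb, 0.36 for Fosl2, 2.06 for Batf2 and 2.09 for Atf3. Those of Fos, Fosb, Batf2 and Atf3 were called under all 22 alternatives run, and that of Fosl2 under 11 of 22.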

How the results depend on the processing

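The day 5 exposure effects of Jun, Junb, Fos, Fosb, Fosl2, Batf2 and Atf3 kept their direction and call under all 15 alternatives run. Fitted to the libraries of the comparison alone, the day 1 exposure effect was called higher in 3650 and lower in 3371 of all genes and higher in 3 AP-1 genes, and uninfected days in 3386 (higher) and 3038 (lower), against 1852 and 1532. With each library left out, uninfected days gave 1227 to 1727 genes higher, 881 to 1407 lower and 3 to 6 AP-1 genes higher (3 without uninfected day 1 replicate 2 or day 5 replicate 4). Values near 0 changed sign. At day 5, Itch was at 0.0012 with DESeq2, 0.0011 with RLE factors, 0.016 with the 1 CPM filter, 0.015 without exposed day 5 replicates 2 and 3, and -0.11 to 0.0900 with each library left out. Without exposed day 5 replicates 2 and 3, Fosl1 was at -0.19, Map3k8 at -0.15 and Hspd1 at 0.034 at day 5. With each library left out, Batf between exposed days ranged from -0.19 to 0.58, Fosl1 at day 1 from -0.97 to 0.22, Rps6ka1 at day 1 from -0.11 to 0.02, and at day 5 Map3k8 from -0.0934 to 0.129, Cop1 from -0.133 to 0.0419 and Mrtfb from -0.0140 to 0.0906. The causes were not tested. The deviations of same-numbered libraries from their group means correlated weakly and with either sign (r -0.151 to 0.148). Such correlations cannot settle whether the numbers mark shared cultures, which the labels do not state. With the replicate number as a block, Fosl1 between uninfected days lost its call (2.34, adjusted p = 0.0595) and Batf between exposed days was at -0.0147. Counts limit Fosl1 and Batf, with at most 36 and 21 counts in a library.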
